A study of Mus musculus with 11 samples.

Results

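Conventional type 1 dendritic cells (cDC1s) are defined by a small group of genes, and 10 of these, among the 24421 genes of the count table, are described here across genotypes. They were taken by gene symbol as a list of known cDC1 transcription factors and markers. *Batf3*, *Irf8*, *Id2*, *Zbtb46* and *Bcl6* encode transcription factors, and *Xcr1*, *Clec9a*, *Cadm1*, *Wdfy4* and *Naaa* encode surface, trafficking or enzyme markers. All 10 were in the table and all 10 passed the filter on low counts (above 1 CPM, counts scaled to a common library size, in at least 4 pools), which left 10951 genes to test. The fewest reads on any of them in a pool were 1580, for *Batf3*.

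The cDC1s were sorted from mice bearing tumors of the melanoma line B16 (B16-F10 in the text of the study), and each of the 11 pools joined tumors of 2 to 4 mice of a genotype. No control mouse carried Cre; the genotype was XBP1fl/fl in control pools 1 to 3, whereas control pool 4 was XBP1fl/fl IRE1fl/fl. The 4 XBP1ΔDC pools came from XBP1fl/fl mice carrying CD11c-Cre, and the 3 XBP1ΔDCIRE1truncDC pools from XBP1fl/fl IRE1fl/fl mice carrying CD11c-Cre. Every group thus carried floxed *Xbp1*, and the Cre-positive groups delete in any cell that uses the *Itgax* (CD11c) promoter, not in cDC1s alone. The comparison asks what the loss of XBP1s, the transcription factor made when IRE1 splices *Xbp1* mRNA, does in these cells with and without the RNase domain of IRE1, which also degrades other mRNAs (RIDD). Pools of a group are separate pools of mice. Mice of both sexes, aged 6 to 14 weeks, were on a C57BL/6 background.

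cDC1s take up dead cells, carry their antigens to lymph nodes and present them on MHC class I to CD8+ T cells, a process called cross-presentation. IRF8 and BATF3 act together to set and keep the cDC1 fate. ID2 blocks E proteins that favour plasmacytoid DCs, ZBTB46 marks the conventional DC lineage as a whole, and BCL6 is a repressor that cDC1s need. XCR1 is the receptor for the chemokine XCL1 from NK and CD8+ T cells. CLEC9A binds actin exposed on dead cells, CADM1 is an adhesion molecule, and WDFY4 is required for cross-presentation of cell-associated antigen. NAAA is a lysosomal amidase that breaks down N-acylethanolamines, a class of lipid amides, and is a marker gene of cDC1s. It reaches lysosomes through the secretory pathway.

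*Naaa* was the only member that passed the test in any comparison. It was lower in both Cre-positive genotypes than in control, by 29.8% in XBP1ΔDC cDC1s and by 20.4% in XBP1ΔDCIRE1truncDC cDC1s, and no pool of either genotype overlapped a control pool. The call in XBP1ΔDC was kept in all 22 other settings tried, and that in XBP1ΔDCIRE1truncDC was lost in 15 of them. The other 9 members kept within a 1.5-fold difference in all 3 comparisons by their 95% intervals. In bulk pools, fewer cells of a type and less RNA per cell cannot be told apart. No member was a differentially expressed gene (DEG, a fold change above 1.5 with an adjusted p under 0.05) in any comparison.

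To set the gene that differed beside others, 3 windows around annotated starts are printed. Each runs from 250 bases before to 50 bases after a RefSeq start on GRCm38.p6. *Naaa* (ENSMUSG00000029413; chr5:92257659-92278170, minus strand, 11 exons in its longest coding transcript) is the member that differed. *Batf3* (ENSMUSG00000026630; chr1:191097847-191108945, plus strand, 3 exons) has the most motif matches. *Zbtb46* (ENSMUSG00000027583; chr2:181387762-181459426, minus strand, 5 exons) had the largest change among the members that did not pass. The RefSeq windows of *Batf3* and *Zbtb46* lie inside the GENCODE genes, not at their outermost starts. The bases just before the *Zbtb46* start read like the end of an intron, so that window may not be a promoter. The windows are chr5:92278132-92278431 for *Naaa*, chr1:191098164-191098463 for *Batf3* and chr2:181424339-181424638 for *Zbtb46*. Each is written 5′ to 3′ on the strand of the gene, and capitals mark the matches to the motifs named below.
Naaa: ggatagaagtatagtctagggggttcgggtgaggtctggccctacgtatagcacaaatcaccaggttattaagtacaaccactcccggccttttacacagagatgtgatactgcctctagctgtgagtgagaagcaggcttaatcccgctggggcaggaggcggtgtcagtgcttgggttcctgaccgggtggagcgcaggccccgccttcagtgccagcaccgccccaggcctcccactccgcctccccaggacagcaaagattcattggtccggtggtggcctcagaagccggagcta
Batf3: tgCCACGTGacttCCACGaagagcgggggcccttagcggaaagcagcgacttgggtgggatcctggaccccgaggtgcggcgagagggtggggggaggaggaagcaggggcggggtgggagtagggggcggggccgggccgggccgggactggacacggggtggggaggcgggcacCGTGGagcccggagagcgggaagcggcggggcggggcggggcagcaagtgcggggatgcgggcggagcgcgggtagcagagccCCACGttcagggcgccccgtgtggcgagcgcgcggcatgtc
Zbtb46: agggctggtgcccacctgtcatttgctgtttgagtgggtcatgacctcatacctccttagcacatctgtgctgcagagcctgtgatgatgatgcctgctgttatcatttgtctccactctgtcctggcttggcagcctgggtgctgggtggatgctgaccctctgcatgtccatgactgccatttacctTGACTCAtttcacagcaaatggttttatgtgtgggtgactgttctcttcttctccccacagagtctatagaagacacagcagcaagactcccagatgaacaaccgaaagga

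Of the 10 members, 9 had at least 1 such window and 11 windows were searched on both strands for 4 motifs. TGACGTGG, a long form of the XBP1s site, was in 0 of the 11 windows and in 0.676% of all 32851 windows in the table. CCACG, the end of the ER stress element, was in 5 of 11, those of *Batf3*, *Irf8*, *Xcr1*, *Wdfy4* and *Bcl6*, against 32.8% of all windows. CACGTG, which overlaps CCACG where a C precedes it, was in 3 of 11, those of *Batf3*, *Xcr1* and *Bcl6*, against 7.15% of all. TGANTCA, the AP-1 site to which BATF3 and JUN bind, was in the *Zbtb46* window alone, against 7.81% of all. The *Naaa* window held none of the 4. These matches are letters in a window of 300 bases, not binding sites.

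*Naaa* was at 4173, 4109, 3926 and 4356 normalized CPM in control pools 1 to 4. It was at 2705, 2966, 2897 and 3052 CPM in XBP1ΔDC pools 1 to 4, and at 3415, 3257 and 3220 CPM in XBP1ΔDCIRE1truncDC pools 1 to 3. The 3 genotypes formed 3 separate bands, with control highest, XBP1ΔDC lowest and XBP1ΔDCIRE1truncDC between them. Group means were 4141 ± 177 CPM in control (SD, n = 4), 2905 ± 148 in XBP1ΔDC (SD, n = 4) and 3298 ± 104 in XBP1ΔDCIRE1truncDC (SD, n = 3).

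**Figure D1:**
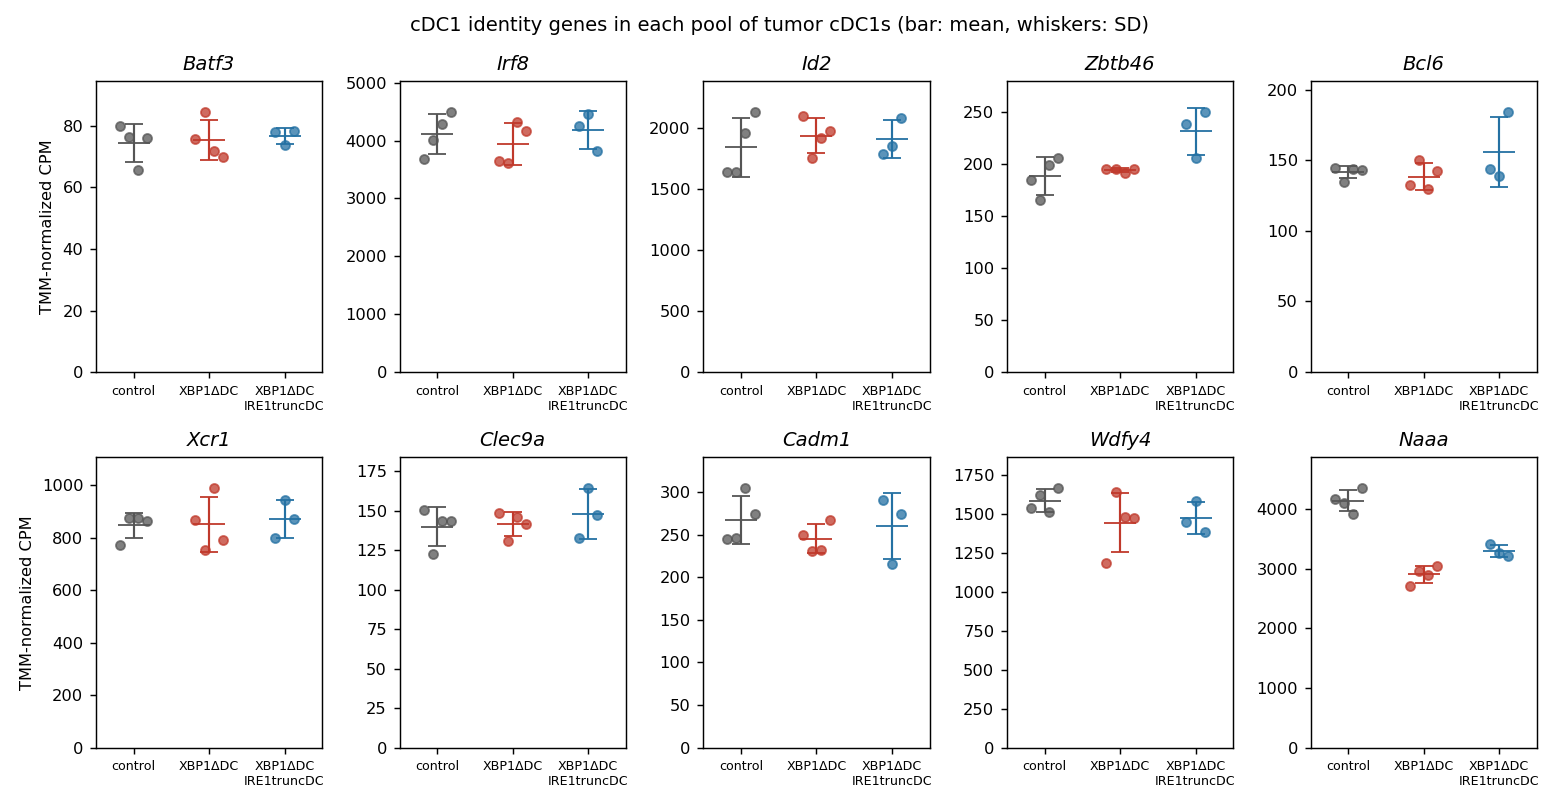
Normalized CPM of each of the 10 identity genes (linear axes from 0), with a point for each pool of control, XBP1ΔDC and XBP1ΔDCIRE1truncDC cDC1s, the mean as a bar and the SD as whiskers. *Naaa* falls into 3 bands that do not overlap, XBP1ΔDCIRE1truncDC pools lie highest for *Zbtb46*, and the genotypes overlap for the other 8 genes.

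The log2 fold change of *Naaa* in XBP1ΔDC against control was -0.51 (95% interval -0.63 to -0.39, adjusted p = 0.000495 from edgeR's quasi-likelihood test). Among all genes tested it ranked 12 by p. The value passed in each of the 22 other settings tried, between -0.54 and -0.48. It was 1 of 10 members past the adjusted p, and 0.895% of all genes tested were past it in either direction and 0.858% in the lower direction. All XBP1ΔDC pools lay below all control pools for this member alone, and 3.67% of all genes did so. No member lay wholly above, against 1.63% of all genes. With the fold change limit of the DEG definition, 0 members and 0.493% of all genes were called, since *Naaa* was 1.43-fold lower. Without adjustment, 1 member and 7.62% of all genes had p under 0.05.

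In XBP1ΔDCIRE1truncDC against control, *Naaa* had a log2 fold change of -0.33 (95% interval -0.46 to -0.20, adjusted p = 0.0396 from edgeR), a level 1.26-fold lower. This call stood close to the threshold and was lost in 15 of 22 other settings, while the fold change stayed between -0.35 and -0.26. Among them were 9 of the 11 fits that each left out a pool, those without any of the control pools or any of the XBP1ΔDCIRE1truncDC pools and those without XBP1ΔDC pool 2 or 3, with adjusted p of 0.0578 to 0.126 from edgeR. It was 1 of 10 members past the adjusted p, against 0.356% of all genes in either direction and 0.292% in the lower direction. It was also the 1 member whose pools lay wholly below control, against 5.81% of all genes. No member and 0.21% of all genes were DEGs. Without adjustment, 2 members, *Naaa* and *Zbtb46*, and 11.2% of all genes had p under 0.05.

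*Naaa* was 0.18 higher on the log2 scale in XBP1ΔDCIRE1truncDC than in XBP1ΔDC cDC1s (95% interval 0.05 to 0.31). The pools did not overlap, but the difference did not pass adjustment (adjusted p = 0.649 from edgeR). In this direct comparison 0 members were DEGs or past the adjusted p, against 0.0731% of all genes by either rule. *Naaa* and *Zbtb46* were the 2 members with p under 0.05 before adjustment, against 5.29% of all genes. The same 2 were wholly higher in the XBP1ΔDCIRE1truncDC pools, against 3.11% of all genes, and none was wholly lower, against 2.96%.

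A ratio to another member needs no scaling of libraries. *Naaa* and *Irf8* were the members with the most reads, and *Irf8* did not pass in any comparison. In control pools 1 to 4 there were 1.13, 1.03, 0.916 and 0.970 *Naaa* counts per *Irf8* count. The ratio was 0.742, 0.820, 0.669 and 0.733 in XBP1ΔDC pools 1 to 4 and 0.802, 0.730 and 0.844 in XBP1ΔDCIRE1truncDC pools 1 to 3. Every Cre-positive pool was below every control pool. The mean log2 ratio differed from control by -0.45 in XBP1ΔDC and by -0.35 in XBP1ΔDCIRE1truncDC, each with p = 0.0286 in a two-sided exact permutation test, the smallest this number of pools allows. Between the Cre-positive genotypes the difference was 0.10 and the pools overlapped (p = 0.314, exact permutation test). This ratio was chosen after the values had been seen, and it uses the same *Naaa* counts as the edgeR test. It is therefore no separate support for the difference.

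**Figure D2:**
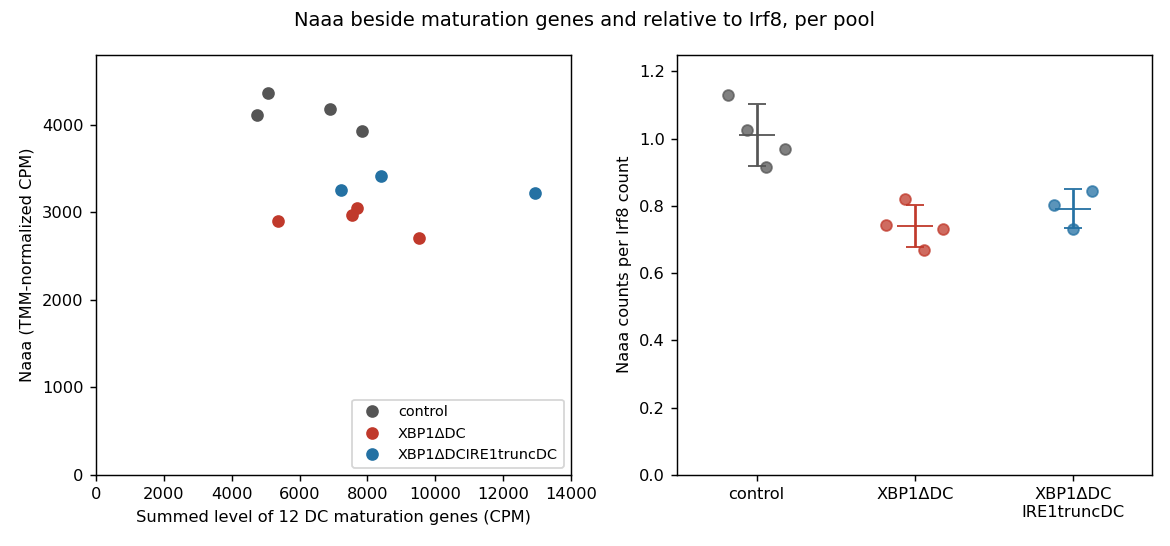
Left, *Naaa* (normalized CPM) against the summed CPM of 12 DC maturation genes, with a point for each pool colored by genotype; right, *Naaa* counts per *Irf8* count in each pool, with the mean as a bar and the SD as whiskers. The 4 control pools lie above all Cre-positive pools in both panels, while the summed maturation levels of the genotypes overlap.

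Pooled over the genotypes, *Naaa* had the smallest SD of log2 CPM within groups among the members. It was 0.063, and 1.46% of the genes tested had a smaller one. The other members ranged from 0.11 for *Batf3* to 0.16 for *Cadm1*, and the median over all genes tested was 0.22. The genes tested were not matched to the members for level. Of them, 99.9% had a lower mean log2 CPM than *Naaa*, and 76.1% a lower one than *Batf3*, the lowest member.

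IRE1 cuts RIDD substrates at sites that often, but not always, hold CTGCAG. These letters were looked for in the longest coding transcript of each member (GENCODE vM21) because RIDD is the branch in which the Cre-positive genotypes differ. Only this exact hexamer was searched, so a transcript with 0 matches may still hold a cut site. The *Naaa* transcript of 2414 bases had 0 matches. Each of the other 9 members had 1 to 15, with 1 in *Batf3*, *Cadm1* and *Xcr1*, 5 in *Irf8*, 8 in *Zbtb46* and 15 in *Wdfy4*. The letters were in 79.8% of 21874 coding transcripts, at a median of 0.71 per kilobase. The match in the *Batf3* coding sequence, from base 165 of the transcript, is shown with the hexamer in capitals.
Batf3: gcggtcagcgtgCTGCAGagaagcgtggat
Cleavage also needs a stem-loop, which was not examined, and no member with a match passed the test in any comparison. *Naaa* and the other members were in none of the study's lists of XBP1s targets (60 genes), RIDD targets (79 genes) and triglyceride synthesis genes (39 genes).

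*Zbtb46* was at 184.6, 164.8, 199.1 and 205.3 CPM in control pools 1 to 4. It was at 194.7, 194.5, 191.1 and 195.4 CPM in XBP1ΔDC pools and at 238.5, 205.9 and 249.5 CPM in XBP1ΔDCIRE1truncDC pools. The 3 XBP1ΔDCIRE1truncDC pools were the highest of the 11, the lowest of them by a margin of under 1 CPM over control pool 4. This was the 1 member wholly higher than control, against 4.31% of all genes. The difference from control was 0.30 on the log2 scale (95% interval 0.10 to 0.49) and did not pass adjustment (adjusted p = 0.232 from edgeR). Against XBP1ΔDC it was 0.25 (95% interval 0.06 to 0.45, adjusted p = 0.781 from edgeR).

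*Irf8* was at 3689, 4003, 4288 and 4491 CPM in control pools 1 to 4. It was at 3647, 3618, 4330 and 4167 CPM in XBP1ΔDC pools and at 4259, 4461 and 3817 CPM in XBP1ΔDCIRE1truncDC pools. The genotypes overlapped throughout. Its log2 fold changes against control were -0.06 in XBP1ΔDC (95% interval -0.24 to 0.11) and 0.02 in XBP1ΔDCIRE1truncDC (95% interval -0.17 to 0.21). *Batf3*, its partner, was at 79.9, 76.5, 65.5 and 76.0 CPM in control pools, at 75.9, 84.5, 72.0 and 69.8 CPM in XBP1ΔDC pools and at 78.0, 73.8 and 78.5 CPM in XBP1ΔDCIRE1truncDC pools. The lowest pool was a control and the highest an XBP1ΔDC pool. Its log2 fold changes against control were 0.02 in XBP1ΔDC (95% interval -0.17 to 0.21) and 0.04 in XBP1ΔDCIRE1truncDC (95% interval -0.16 to 0.25).

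*Id2* lay between 1640 and 2127 CPM in control, between 1749 and 2099 in XBP1ΔDC and between 1784 and 2083 in XBP1ΔDCIRE1truncDC pools. Its log2 fold changes against control were 0.07 in XBP1ΔDC (95% interval -0.13 to 0.27) and 0.05 in XBP1ΔDCIRE1truncDC (95% interval -0.17 to 0.27). *Bcl6* lay between 134.9 and 144.5 CPM in control and between 129.3 and 149.9 in XBP1ΔDC pools, and was at 144.0, 138.8 and 183.9 CPM in XBP1ΔDCIRE1truncDC pools. Pool 3 of the XBP1ΔDCIRE1truncDC group was thus apart from all others for this repressor. The *Bcl6* difference of that group from control was 0.14 on the log2 scale (95% interval -0.08 to 0.35, adjusted p = 0.689 from edgeR), with a value of -0.0019 without that pool.

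Among the surface markers, *Xcr1* lay between 773 and 875 CPM in control, between 751 and 989 in XBP1ΔDC and between 798 and 944 in XBP1ΔDCIRE1truncDC pools. The *Xcr1* log2 fold changes against control were 0.01 (95% interval -0.19 to 0.20) and 0.04 (95% interval -0.17 to 0.25). XCR1 protein, with CD24, CD26 and CD11c, is part of the gate the study pictures for tumor cDC1s. If the pools were sorted by that gate, which the RNA-seq methods do not restate, the level of *Xcr1* is not independent of the sort. CLEC9A is not part of the pictured gate. *Clec9a* was at 150.6, 122.6, 143.7 and 143.4 CPM in control pools. It was at 148.5, 131.0, 146.0 and 141.4 CPM in XBP1ΔDC pools and at 133.0, 164.6 and 147.4 CPM in XBP1ΔDCIRE1truncDC pools, with full overlap. Its log2 fold changes against control were 0.02 (95% interval -0.17 to 0.21) and 0.08 (95% interval -0.12 to 0.29). *Clec9a* shares 184 exonic bases (5.59% of its exons) with *Clec1b* on the same strand, a gene with at most 8 counts in a pool.

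*Cadm1* lay between 244.7 and 304.8 CPM in control, between 231.3 and 267.2 in XBP1ΔDC and between 215.8 and 290.0 in XBP1ΔDCIRE1truncDC pools. The *Cadm1* log2 fold changes against control were -0.13 (95% interval -0.35 to 0.10) and -0.04 (95% interval -0.28 to 0.20). *Wdfy4*, the cross-presentation factor, was at 1537, 1625, 1511 and 1668 CPM in control pools and at 1185, 1644, 1480 and 1472 CPM in XBP1ΔDC pools. It was at 1449, 1585 and 1383 CPM in XBP1ΔDCIRE1truncDC pools. Pool 1 of XBP1ΔDC was the lowest of the 11, and the other XBP1ΔDC pools reached into the control range or just below it. The *Wdfy4* log2 fold change in XBP1ΔDC was -0.13 (95% interval -0.33 to 0.06, adjusted p = 0.838 from edgeR), and without that pool it was -0.05.

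The 9 members other than *Naaa* gave 27 differences over the 3 comparisons, from -0.13 for *Wdfy4* to 0.30 for *Zbtb46* on the log2 scale. All 27 intervals lay inside the 1.5-fold limit of 0.58, the lowest bound being -0.35 for *Cadm1* in XBP1ΔDC and the highest 0.49 for *Zbtb46* in XBP1ΔDCIRE1truncDC, each against control. Of the 27 intervals, 25 held 0, and the others were those of *Zbtb46* in XBP1ΔDCIRE1truncDC pools. An interval that holds 0 does not show that a gene is unchanged. The median log2 fold change of the 10 members was -0.01 in XBP1ΔDC and 0.04 in XBP1ΔDCIRE1truncDC against control, beside 0.00 over all genes tested in both. In XBP1ΔDCIRE1truncDC against XBP1ΔDC it was 0.07, beside 0.00 over all genes tested, with 9 members higher and 1 lower.

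**Figure D3:**
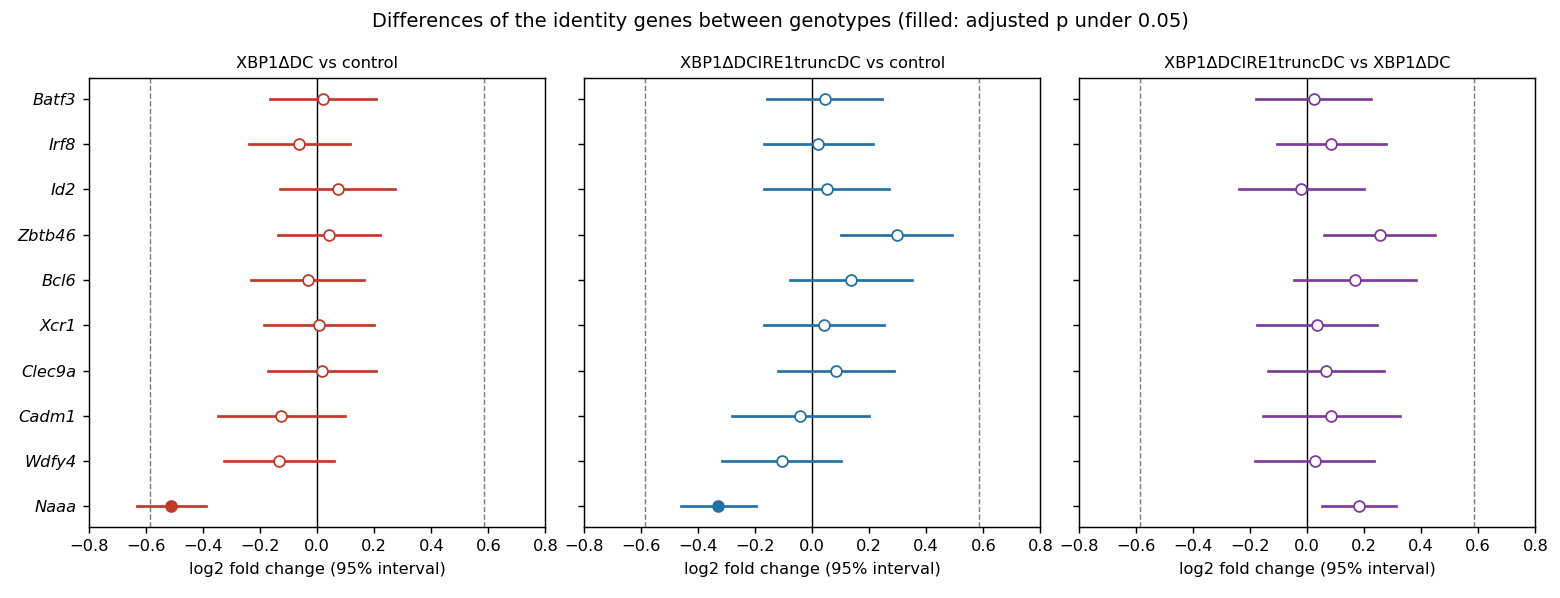
Log2 fold change of each identity gene in the 3 comparisons (points) with its 95% interval (lines); filled points passed an adjusted p under 0.05 and dashed lines mark a 1.5-fold difference. Only *Naaa* is filled, at -0.51 and -0.33 against control, and the intervals of all other genes stay inside the dashed lines.

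Levels differed far more between genes than between genotypes. Per kilobase of annotated exons, the control level of *Naaa* was highest at 1113 ± 47.7 CPM per kilobase (SD, n = 4), followed by *Id2* at 755 ± 99.2 and *Irf8* at 584 ± 49.5. *Xcr1* followed, with pools at 174 to 197, and *Wdfy4*, with pools at 143 to 158. The pools of these 5 genes did not overlap from one gene to the next. *Batf3* at 46.6 ± 3.9 and *Clec9a* at 42.5 ± 3.7 overlapped. *Zbtb46* at 22.1 ± 2.1 overlapped both *Cadm1* at 25.6 ± 2.7 and *Bcl6* at 21.1 ± 0.67, which did not overlap each other. In XBP1ΔDC cDC1s the level of *Naaa* per kilobase fell into the range of *Id2*, at 727 to 820 against 717 to 861. The order depends on the length used. With the longest coding transcript, *Naaa* at 1716 and *Irf8* at 1446 CPM per kilobase led in control, and *Irf8* at 1384 led *Naaa* at 1203 in XBP1ΔDC.

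From pool to pool the identity genes showed no common direction. Over their 45 pairs, the correlation of log2 CPM after removal of group means had a median of 0.03 over the 11 pools. It ran from -0.67 for *Batf3* with *Irf8* to 0.76 for *Zbtb46* with *Cadm1*, and 5 pairs were above 0.5 and 3 below -0.5. *Batf3* and *Irf8*, the pair that act together, thus tended to deviate in opposite directions, while the SD of each was at most 9.19% of its mean within a genotype. These are descriptions over pools that share their libraries.

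For each member the 3 tested genes with the closest pattern were found by Pearson r of log2 CPM over the 11 pools, group differences included. Those of *Naaa* were *Nucb1* (r = 0.97), *Slc30a5* (r = 0.96) and *Mlec* (r = 0.95). *Nucb1* encodes a calcium-binding protein of the Golgi, *Slc30a5* a zinc transporter of the secretory pathway and *Mlec* an ER lectin. *Mlec* is in the study's lists of both XBP1s targets and RIDD targets. Those of *Irf8* were *Cdca2* (r = 0.94), *Ptpn7* (r = 0.93) and *Plk1* (r = 0.92), of which *Cdca2* and *Plk1* act in mitosis. The closest to *Clec9a* was *Slc33a1* (r = 0.97), to *Wdfy4* *Heatr3* (r = 0.95), to *Batf3* *Hmga2-ps1* (r = 0.92), to *Zbtb46* *Dennd4b* (r = 0.91) and to *Id2* *Ankmy2* (r = 0.91). For *Xcr1*, *Cadm1* and *Bcl6* the closest were *Carhsp1* (r = 0.90), *Ppfibp2* (r = 0.90) and *Slc16a6* (r = 0.88). These are the highest values picked from all genes tested, over 11 pools. How high such values run between unrelated genes was not tested.

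A list of 20 further cDC1 genes was set beside the members, and 19 were in the table and tested. In XBP1ΔDC against control 15 of the 19 were lower and 4 higher, with a median of -0.11 on the log2 scale. In XBP1ΔDCIRE1truncDC again 15 were lower and 4 higher, with a median of -0.17. None of the 19 passed adjustment in any comparison. Without adjustment, 2 of the 19 had p under 0.05 in XBP1ΔDC, against 7.62% of all genes, and 7 of the 19 in XBP1ΔDCIRE1truncDC, against 11.2%. The 2 were lower. Of the 7, 6 were lower and 1, *Ly75*, was higher (log2 fold change 0.47, adjusted p = 0.328 from edgeR). The leading genes were *Itgae*, the CD103 integrin chain (log2 fold change -0.26 in XBP1ΔDC, adjusted p = 0.254 from edgeR), and *Snx22*, a sorting nexin (-0.51 in XBP1ΔDCIRE1truncDC, adjusted p = 0.205 from edgeR). *Cd24a*, whose product is in the pictured gate, was at -0.23 in XBP1ΔDCIRE1truncDC (adjusted p = 0.274 from edgeR). The list was highest for *Ppt1*, a lysosomal thioesterase, at 3119 ± 117 CPM in control (SD, n = 4), and lowest for *Xlr* at 3.53 ± 0.24.

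Of 11 genes shared by conventional DCs, 9 were lower in XBP1ΔDC and 10 in XBP1ΔDCIRE1truncDC than in control, with medians of -0.14 and -0.18, and none passed adjustment. Without adjustment, 2 of the 11 had p under 0.05 in XBP1ΔDC, against 7.62% of all genes. In XBP1ΔDCIRE1truncDC it was 6 of the 11, against 11.2%, and all of these were lower. *H2-Ab1*, an MHC class II chain, was at -0.20 and -0.26 (adjusted p = 0.388 and 0.2 from edgeR). *Cd74*, the invariant chain, was the most abundant of the list, at 35444 ± 1708 CPM in control (SD, n = 4). Of 22 further regulators of DC fate 21 were tested, and none passed in any comparison. The median of this list was -0.02 in XBP1ΔDC and -0.04 in XBP1ΔDCIRE1truncDC. A median near 0 hides shifts in both directions. Without adjustment, 5 regulators were lower and 5 higher with p under 0.05 in XBP1ΔDCIRE1truncDC against control, beside 11.2% of all genes. In XBP1ΔDC 1 was lower and 1 higher, beside 7.62%. *Jun*, a partner of BATF3 at AP-1 sites, had the smallest p, with a log2 fold change of -0.78 in XBP1ΔDCIRE1truncDC against control (adjusted p = 0.111 from edgeR) and -0.58 against XBP1ΔDC (adjusted p = 0.585). *Relb*, an NF-κB subunit of maturing DCs, was at 0.73 in XBP1ΔDCIRE1truncDC (adjusted p = 0.251 from edgeR). *Bcl11a*, a factor needed for DC progenitors, was at -0.36 and -0.38 in the Cre-positive genotypes (adjusted p = 0.408 and 0.307 from edgeR). *Zeb2*, which antagonizes the cDC1 fate, was at 0.82 to 4.21 CPM in the pools.

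**Figure D4:**
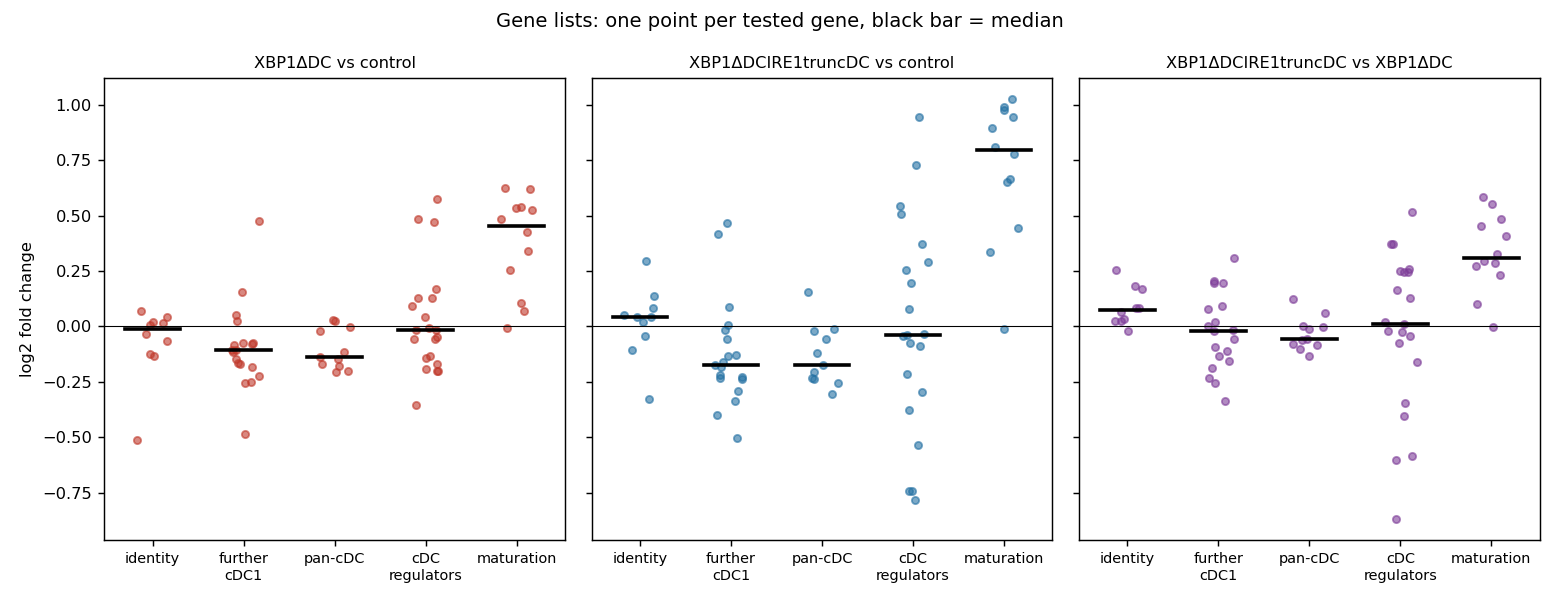
Log2 fold change of each tested gene (points, spread sideways at random for visibility) in 5 lists for the 3 comparisons, with the median of each list as a black bar. Identity genes center near 0 apart from *Naaa*, further cDC1 and pan-cDC genes lie slightly below 0 against control, and maturation genes lie above it, with no gene other than *Naaa* past the adjusted p.

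The cDC1 label was checked against markers of other cells. The 8 cDC2 genes summed to 26.6 to 69.5 CPM in a pool and 6 plasmacytoid DC genes to 22.6 to 42.4. The highest sum in a pool was 2.76 CPM for 5 B cell genes, 1.56 for the 4 neutrophil genes in the table and 10.2 for 7 T and NK cell genes. *Clec4a4*, a cDC2 gene, had no count in any pool, but *Mgl2* of the same list reached 40.3 CPM in control pool 3. *Mertk*, a macrophage gene, was at most at 0.80 CPM. Other genes of its list were higher, with *Ly6c2* at 48.0 CPM in XBP1ΔDCIRE1truncDC pool 2 and *Apoe* at 40.3 CPM in XBP1ΔDC pool 3. The 11 monocyte and macrophage genes summed to 498 to 1208 CPM, of which *Lyz2*, also used by DCs, made 815 ± 178 CPM in control (SD, n = 4). No gene of the neutrophil and the T and NK cell lists passed the filter on low counts, so none of them was tested. No tested gene of the other lists passed adjustment. Against control, 9 of 10 tested monocyte and macrophage genes were higher in XBP1ΔDC and 8 in XBP1ΔDCIRE1truncDC. The medians were 0.72 and 0.38 on the log2 scale. Without adjustment, 1 of the 10 had p under 0.05 in XBP1ΔDC, against 7.62% of all genes, and 0 in XBP1ΔDCIRE1truncDC, against 11.2%. Of 4 tested plasmacytoid DC genes, 2 were lower and 2 higher in each. In XBP1ΔDCIRE1truncDC the 2 lower ones had p under 0.05.

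Summed levels of maturation genes and of melanoma transcripts differed in range between genotypes. The 12 maturation genes, such as *Ccr7* and *Fscn1*, summed to 4745 to 7839 CPM in control, 5352 to 9512 in XBP1ΔDC and 7229 to 12949 in XBP1ΔDCIRE1truncDC pools. In each comparison with control 11 of the 12 were higher, with medians of 0.45 and 0.79 on the log2 scale, and none passed adjustment. Without adjustment, 1 of the 12 had p under 0.05 in XBP1ΔDC, against 7.62% of all genes, and 10 of the 12 in XBP1ΔDCIRE1truncDC, against 11.2%. In the latter *Il12b* had the smallest p (log2 fold change 0.98, adjusted p = 0.197 from edgeR), and *Fscn1* the largest change (1.02, adjusted p = 0.238). With their mean as a covariate, *Naaa* stood at -0.48 in XBP1ΔDC against control (adjusted p = 0.0018 from edgeR) and at -0.26 in XBP1ΔDCIRE1truncDC (adjusted p = 0.302), and *Zbtb46* stood at 0.18 in the latter (adjusted p = 0.744). Within groups, log2 CPM correlated with this mean at r = -0.55 for *Naaa*, 0.55 for *Zbtb46*, 0.60 for *Bcl6*, -0.56 for *Irf8* and -0.67 for *Wdfy4* over the 11 pools.

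The 6 melanoma genes, *Pmel* and *Dct* among them, summed to 8.22 to 59.1 CPM in control, 11.2 to 63.3 in XBP1ΔDC and 6.30 to 8.76 in XBP1ΔDCIRE1truncDC pools. Within groups, their mean correlated with *Irf8* at r = 0.74 and with *Batf3* at r = -0.75 over the 11 pools. With it as a covariate, *Naaa* stood at -0.51 in XBP1ΔDC (adjusted p = 0.000784 from edgeR) and at -0.31 in XBP1ΔDCIRE1truncDC (adjusted p = 0.139). Both covariates were also fitted for the other members, and the values that turned sign are given in the last section. Whether maturation or tumor transcripts cause any of the differences was not tested.

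Totals per pool were 21089065 to 26843486 counts, with overlapping ranges in the genotypes. *Xbp1*, floxed in all mice, was at 244 to 271 CPM in control, 130 to 165 in XBP1ΔDC and 179 to 236 in XBP1ΔDCIRE1truncDC pools. *Ern1*, which encodes IRE1, was at 9.82 to 19.0, 9.74 to 15.6 and 17.0 to 26.0 CPM in these groups. Counts per gene do not show whether a floxed exon is missing, so the level of *Ern1* is no check of its truncation.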

How the data were processed

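The authors trimmed single-end reads of SMART-seq libraries with Trimmomatic 0.39, aligned them with STAR 2.7.3a (build mm10 in the submitters' processing notes) before HTSeqCount assigned reads to genes. The counts were deposited without normalization. A second deposited table of log2 values was not used. Amplification makes reads dependent, so counting error understates the spread, which the pools carry.

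Tests used edgeR 4.0.16 in R 4.3.3. The filter was more than 1 CPM in 4 pools or more, libraries were scaled by TMM, and the 3 genotypes were fitted in a quasi-likelihood model with Benjamini-Hochberg adjustment over the 10951 genes tested. Intervals are the log2 fold change plus or minus its standard error times the t quantile at 12.7 degrees of freedom. Fits were tested on simulated data. Pools of a group differed by 19.9 to 61.5 in chi-square per degree of freedom, so none was a copy. Alternatives used DESeq2 1.42.0, limma 3.58.1, other scalings and filters, only the groups compared, a replicate block and leaving out each pool. The maturation and melanoma covariates, edgeR's newer method, the count of members without the fold limit under each setting, the level by longest coding transcript and the *Naaa* to *Irf8* ratio were added after seeing the data.

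The members and lists were chosen with earlier results of these data known. Named are all members, from each list the genes past adjustment, those with the 2 smallest p and the highest and lowest levels, and the 3 genes closest to each member. Of these the text prints the genes a result turns on. *Cd24a*, *Ly75*, *Clec4a4*, *Mgl2*, *Mertk*, *Ly6c2*, *Apoe*, *Lyz2*, *Ccr7*, *Fscn1*, *Zeb2* and *Relb* were chosen after their values were seen where they fall outside this rule. Coordinates and exons are from GENCODE vM21 on GRCm38 and promoter windows from RefSeq on GRCm38.p6. Sequence matches and plots used python 3.11.15, numpy 2.4.6, pandas 2.3.3, scipy 1.17.1 and matplotlib 3.10.9.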

Additional observations from a re-analysis of the deposited data

Results flagged for a closer look

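With 10 genes in the control and XBP1ΔDC groups, 20 groups of 4 pools were examined for a pool far from the others, and 2 were found, where chance gives about 1 in 20. *Bcl6* was at 134.9 CPM in control pool 2, and the other control pools lay between 143.2 and 144.5 CPM. *Xcr1* was at 773.1 CPM in control pool 1, and the other control pools lay between 863.0 and 875.4 CPM. Both are low pools of otherwise tight groups, and no call rests on them.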

How the results depend on the processing

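The call of *Naaa* in XBP1ΔDC against control was kept in all 22 alternatives. Its call in XBP1ΔDCIRE1truncDC against control was kept by DESeq2, limma-voom, RLE and library size scaling, the filter of 3 pools and the fits without XBP1ΔDC pool 1 or 4. There the count of members past the adjusted p fell from 1 to 0 with no filter, only the groups compared, the replicate block, either covariate and edgeR's newer method, and was 0 to 1 over the fits that left out a pool. With no fold change limit 1 member was called in each comparison with control, and all-gene counts rose to 98 in XBP1ΔDC and 39 in XBP1ΔDCIRE1truncDC. In XBP1ΔDCIRE1truncDC against control the all-gene count moved from 23 to 94 with DESeq2, 15 with only the groups compared, 3 with the maturation covariate and 12 to 23 without a pool. Against XBP1ΔDC it moved from 8 to 36 with DESeq2, 4 with the melanoma covariate and 4 to 10 without a pool. The causes were not tested. 

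Deviations of same-numbered pools had correlations of 0.042 to 0.133 between control and XBP1ΔDC (2 of 4 above 0.1), where other pairs averaged -0.033. They were -0.020 to 0.027 between control and XBP1ΔDCIRE1truncDC and -0.260 to -0.142 between the Cre-positive genotypes. In no comparison was every pair above 0.1, and the labels tie the numbers to no shared animal or day, so the numbers were not taken as pairs. With the replicate number as a block, *Naaa* stood at -0.51 (adjusted p = 0.00484 from edgeR) and -0.30 (adjusted p = 0.155), *Id2* turned to 0.018 in XBP1ΔDCIRE1truncDC against XBP1ΔDC, and the all-gene counts with XBP1ΔDCIRE1truncDC were 11 against control and 3 against XBP1ΔDC. 

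With the maturation covariate the log2 fold changes that turned sign were 0.0034 for *Irf8*, -0.019 for *Zbtb46* and -0.016 for *Clec9a* in XBP1ΔDC against control, -0.061 for *Id2*, -0.018 for *Bcl6* and 0.061 for *Wdfy4* in XBP1ΔDCIRE1truncDC against control. With the melanoma covariate the log2 fold changes that turned sign were -0.070 for *Batf3* and 0.082 for *Cadm1* in XBP1ΔDCIRE1truncDC against control, -0.074 for *Batf3* and 0.073 for *Id2* in XBP1ΔDCIRE1truncDC against XBP1ΔDC. With library size scaling the log2 fold changes that turned sign were -0.0086 for *Batf3* and -0.0048 for *Wdfy4* in XBP1ΔDCIRE1truncDC against XBP1ΔDC. Leaving out a pool turned the sign of small differences as well. The ranges of log2 fold change in XBP1ΔDC against control were -0.037 to 0.058 for *Batf3*, -0.018 to 0.085 for *Zbtb46*, -0.072 to 0.0015 for *Bcl6*, -0.071 to 0.063 for *Xcr1* and -0.042 to 0.055 for *Clec9a*. The ranges of log2 fold change in XBP1ΔDCIRE1truncDC against control were -0.013 to 0.079 for *Batf3*, -0.028 to 0.082 for *Irf8*, -0.017 to 0.13 for *Id2*, -0.0019 to 0.21 for *Bcl6*, -0.021 to 0.10 for *Xcr1* and -0.13 to 0.076 for *Cadm1*. The ranges of log2 fold change in XBP1ΔDCIRE1truncDC against XBP1ΔDC were -0.013 to 0.090 for *Batf3*, -0.089 to 0.025 for *Id2*, -0.030 to 0.11 for *Xcr1*, -0.019 to 0.14 for *Clec9a*, -0.0022 to 0.20 for *Cadm1* and -0.057 to 0.10 for *Wdfy4*. Of 660 log2 fold changes under alternatives, 603 kept direction and side of the threshold, 15 lost the call, all of *Naaa*, and 42 turned sign, none of them of a called value. With 3 or 4 pools a group, a difference smaller than the distance from its value to the bounds of its interval cannot be told from 0.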
